A study of Drosophila melanogaster with 12 samples.

Results

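The cytosolic ribosomal proteins, translation initiation and elongation factors, and aminoacyl-tRNA synthetases of the fruit fly head were followed through drug treatment and withdrawal. Members were all probes with a single annotated gene whose current symbol starts with RpL, RpS, eIF or eEF, or ends in an amino acid abbreviation followed by RS; mitochondrial ribosomal proteins were not counted. The rule found 75 of the 13824 probes on the array, for 59 of the 6692 genes that have a probe of their own and a current symbol. The gene table used here holds 164 genes that meet the rule, so most were not on the array or had no probe listed with them alone. Of these 59 genes, 15 were large-subunit proteins (26 probes, of 54 such genes in the table), 8 small-subunit proteins (10 probes, of 38), 26 initiation factors (27 probes, of 44), 4 elongation factors (5 probes, of 8) and 6 synthetases (7 probes, of 20). RpL32, which flies' quantitative PCR often uses as a reference gene, had 10 probes, 8 of them without a value on any array.

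The cytosolic ribosome is built from a small subunit, which reads the mRNA, and a large subunit, which joins amino acids. Initiation factors (eIF) bring the mRNA cap, the initiator tRNA and both subunits together, elongation factors (eEF) carry the ribosome along the message, and synthetases load each tRNA with its amino acid. In many eukaryotes, mRNAs of ribosomal proteins are known to respond together to nutrients and growth signals, and in neurons, translation supports lasting changes at synapses.

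RNA came from heads of unmated Oregon-R males (a wild-type stock), pooled from vials that held 30 flies each at the start, and was hybridised in 2 colours to 12 cDNA microarrays, 4 for each of 3 groups. The males aged 3 to 4 days at the start were first fed 8 mg/ml pentylenetetrazole (PTZ, a convulsant) for 7 days. PTZ-ETH flies then received 3.48 mg/ml ethosuximide (ETH, an antiepileptic drug) for 3 days and were taken on day 10. PTZ-ETH-NF flies received ETH for 3 days and then normal food (NF) for 4 days, and PTZ-NF-NF flies received normal food for those 7 days; both were taken on day 14. Each array set treated heads against heads of flies kept on normal food over the same days, called untreated here, and all 3 treated groups shared the PTZ. The labels do not say whether the day-14 untreated pools were shared between groups. In pooled heads, fewer cells of a type and less RNA per cell cannot be told apart.

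In each group the treated RNA was labelled with Cy5 for replicates 1 and 2. For replicates 3 and 4, the dye swaps, it carried Cy3. No source used here states whether the ratios of the dye swaps were deposited already turned to treated over untreated. The ratios were therefore read in 2 ways. In the first, the deposited ratio was taken as Cy5 over Cy3 and the dye swaps were turned in sign, which is an assumption. In the second, the deposited sign was kept on every array. The part of a deposited ratio that both dye orientations share is a treatment difference only in the second reading. The part that changes sign with the dyes is a treatment difference only in the first. A ratio with the same sign on all arrays can hold both parts, where its size differs between the orientations. All values are log2 ratios with the array median at 0. Values were present for 5077 to 10433 probes per array, and position on the slide moved with the ratios: over the 48 printing blocks, block medians had an SD of 0.22 to 0.37 log2 on the day-10 arrays and 0.06 to 0.21 log2 on the day-14 arrays. On all 12 arrays, 20 of the 75 member probes (26.7%) had a value, against 2145 of all probes (15.5%). Among the marker genes of cell types, 8 of 17 photoreceptor and 7 of 9 glia markers had a probe and a value. So did 1 of 11 neuron, 3 of 9 antenna, 7 of 9 fat body, 5 of 10 muscle and 2 of 7 gut markers. The 4 of 9 testis markers with a probe had too few values to test in any group. Every marker with a probe had a value on some array, so these counts follow the probes present and do not identify the tissue.

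With the dye swaps turned, no member probe differed from untreated heads at an adjusted p under 0.05 (limma across all probes, Benjamini-Hochberg) in any of the 3 groups. At day 10, 0 of the 57 member probes with at least 3 values passed, where 0.222% of all 9479 probes tested did. At day 14, 0 of 42 passed in the PTZ-ETH-NF group and 0 of 48 in the PTZ-NF-NF group, where 0% of the 5135 and 0% of the 6386 probes tested did. The other processing settings with turned swaps also gave 0, except in PTZ-NF-NF heads, where 3 members passed on the group's own arrays, 2 with array weights and 1 with arrays scaled to 1 spread (4.31%, 1.91% and 1.05% of all probes). At an unadjusted p under 0.05, 11 of the 57 (19.3%) lay in the day-10 group against 8.34% of all probes, 3 of the 42 (7.14%) in the day-14 PTZ-ETH-NF group against 4.4%, and 4 of the 48 (8.33%) in the day-14 PTZ-NF-NF group against 6.69%.

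As a class, the ribosomal protein genes had medians close to the array median in this reading. With each gene represented by its best measured probe, their median was -0.05 log2 over 18 genes in PTZ-ETH heads at day 10, with 6 genes above 0, against 0.02 over all 5562 genes tested. It was -0.05 over 17 genes in PTZ-ETH-NF heads, with 4 above 0, and -0.07 over 18 genes in PTZ-NF-NF heads, with 5 above 0, against medians of 0.00 and -0.01 over all genes tested there. The 24 initiation factor genes tested at day 10 had a median of -0.04 log2 and ran from -0.42 to 0.59. The 6 synthetase genes had a median of 0.13 log2 at day 10, with 4 above 0 and none past the threshold.

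With the deposited signs kept, the ribosomal protein genes lay above the array median at day 14. Their median was 0.18 log2 over 18 genes in PTZ-NF-NF heads, where all 18 lay above 0, from 0.01 to 0.52, and 1836 of all 3642 genes tested did. The probe chosen for a gene bears on that count: over all 23 ribosomal protein probes tested there, 21 lay above 0, with a median of 0.13 log2. The other 2 were probes of RpL39 (-0.39 log2) and RpL7-like (-0.02) that have fewer values than the one used for the gene. After the median of each printing block was subtracted on each array, 16 of the 18 genes lay above 0. Without that subtraction, the median of the class was 0.13 log2 over 17 genes in PTZ-ETH-NF heads, where 13 lay above 0. In PTZ-ETH heads at day 10 it was -0.05 over 18 genes, where 7 did. Only 1 of the ribosomal protein genes passed the threshold at day 14 (RpS28b, below), so the shift of the class is a description of its median.

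The class was also followed array by array. In PTZ-ETH heads at day 10, the deposited medians of replicates 1 to 4 were -0.27, 0.06, 0.00 and -0.01 log2. In PTZ-ETH-NF heads at day 14 they were -0.11, 0.18, 0.20 and 0.21 log2, and in PTZ-NF-NF heads at day 14 they were -0.02, 0.15, 0.19 and 0.17 log2. Within each group, replicate 1 had the lowest median. In both day-14 groups, replicate 2 and both dye swaps had medians above 0, although the dyes were exchanged between them.

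**Figure D1:**
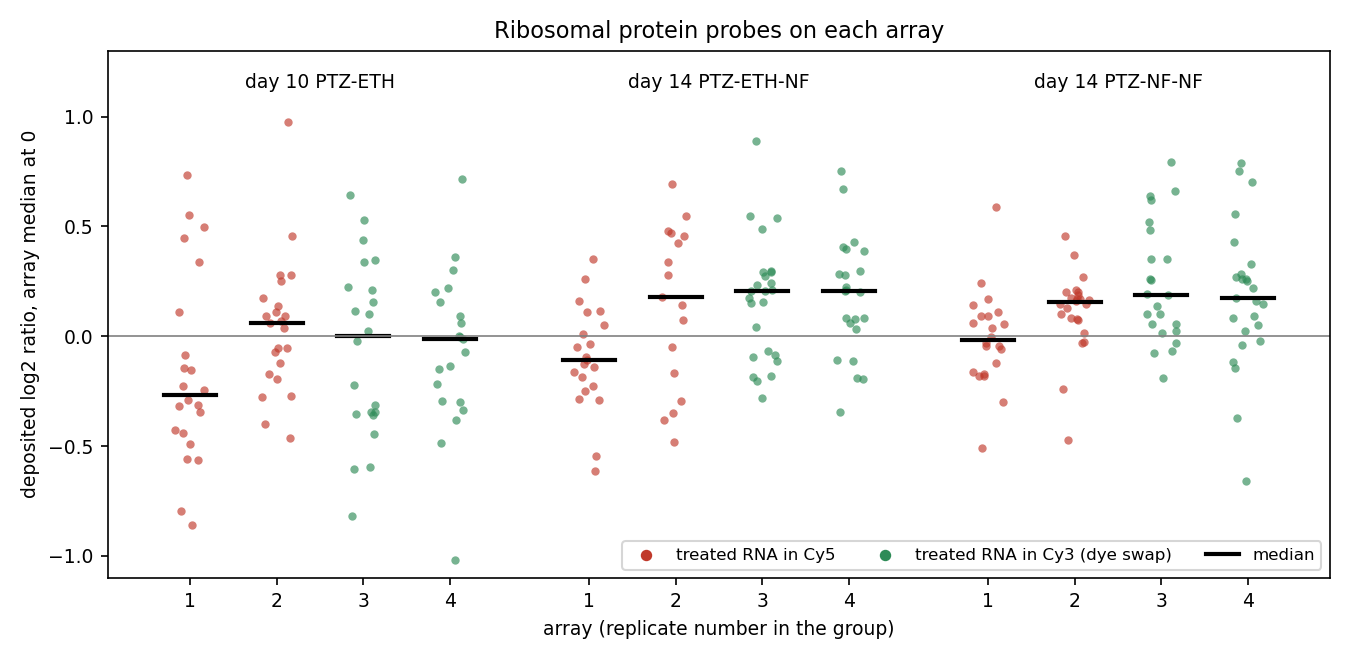
Deposited log2 ratio (array median at 0) of each ribosomal protein probe on each of the 12 arrays, with the class median as a bar; red points are arrays with the treated RNA in Cy5 and green points are dye swaps. Replicate 1 has the lowest median in each group, and the day-14 medians of replicates 2 to 4 lie between 0.15 and 0.21 log2.

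With a common set of probes the highest median of each group was higher, while some arrays had lower medians (PTZ-NF-NF replicate 2, 0.12 against 0.15 log2). The same 10 ribosomal protein probes had a value on every array, and their median ran from -0.19 to 0.19 log2 over the 4 day-10 arrays, from -0.11 to 0.44 over the 4 PTZ-ETH-NF arrays and from -0.04 to 0.30 over the 4 PTZ-NF-NF arrays. On PTZ-NF-NF replicate 4, all 10 of them lay above 0, and on PTZ-NF-NF replicate 1, 3 did. On PTZ-ETH-NF replicate 2 their median was 0.44 log2, against 0.18 over all ribosomal protein probes with a value.

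RpLP0 (CG7490), a protein of the stalk of the large subunit on which elongation factors are known to act, had ratios that followed the dyes. In PTZ-ETH heads at day 10 its deposited log2 ratios were -0.15 and 0.28 with treated RNA in Cy5 and 0.64 and 0.72 on the dye swaps. In PTZ-ETH-NF heads they were 0.35 and 0.42, and 0.49 and 0.67 on the dye swaps. In PTZ-NF-NF heads they were -0.04 and 0.17, and 0.79 and 0.75 on the dye swaps. In every group both dye swaps lay above both other arrays, and 10 of the 12 ratios were above 0.

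Turned to treated over untreated, the log2 ratio of RpLP0 averaged -0.31 ± 0.46 (SD, n = 4) in PTZ-ETH heads, -0.10 ± 0.56 (SD, n = 4) in PTZ-ETH-NF heads and -0.36 ± 0.49 (SD, n = 4) in PTZ-NF-NF heads. None of the 3 passed, with limma adjusted p of 0.46 at day 10, 0.998 in PTZ-ETH-NF heads and 0.54 in PTZ-NF-NF heads. With deposited signs, the same probe was 0.37 ± 0.11 log2 (SE) in PTZ-ETH heads, which passed (limma adjusted p = 0.0263), 0.48 ± 0.10 in PTZ-ETH-NF heads (adjusted p = 0.0625) and 0.42 ± 0.11 in PTZ-NF-NF heads (adjusted p = 0.127). The sign of RpLP0 depends on the reading of the dye swaps in every group.

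RpL15 and RpL3, structural proteins of the large subunit, were likewise higher on dye swaps. In PTZ-ETH heads at day 10 the deposited log2 ratios of RpL15 were -0.49 and 0.11 with treated RNA in Cy5 and 0.53 and 0.36 on the dye swaps. In PTZ-ETH-NF heads they were -0.25 and 0.34, and 0.55 and 0.40 on the dye swaps, and in PTZ-NF-NF heads they were -0.18 and 0.08, and 0.62 and 0.33 on the dye swaps. All 6 dye swaps lay above 0 and 3 of the 6 other arrays did. Turned, RpL15 was -0.32 ± 0.13 log2 (SE) at day 10 (limma adjusted p = 0.55).

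RpL3 had 1 value at day 10, a deposited log2 ratio of 0.21 on a dye swap, and was not tested there. In PTZ-ETH-NF heads its deposited log2 ratios were -0.11 and 0.14 with treated RNA in Cy5 and 0.24 and 0.75 on the dye swaps. In PTZ-NF-NF heads they were -0.03 and 0.19, and 0.64 and 0.70 on the dye swaps. In both day-14 groups the dye swaps lay above the other arrays without overlap. Turned, RpL3 was -0.24 ± 0.12 log2 (SE) in PTZ-ETH-NF heads and -0.30 ± 0.12 in PTZ-NF-NF heads (limma adjusted p = 0.998 and 0.72).

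Over all ribosomal protein probes with 4 values in a group, both dye swaps lay above both other arrays for 6 of 16 at day 10 (37.5%, against 14.4% of all 7461 such probes), 6 of 15 in PTZ-ETH-NF heads (40%, against 20.4% of 3301) and 9 of 22 in PTZ-NF-NF heads (40.9%, against 31.1% of 4922). The opposite order was found for 3 of 16, 1 of 15 and 3 of 22 probes, against 23.5%, 16.8% and 25.5% of all probes. The initiation and elongation factors had the first order for 6 of 25, 5 of 14 and 9 of 16 probes, and the opposite order for 5, 0 and 2 of them. Of the synthetase probes, 0 of 6, 0 of 1 and 0 of 2 had the first order, and 2 of the 6 had the opposite order at day 10. In the turned reading the first order lowers the treated value, and with deposited signs it is a difference between dye orientations. Which of these applies was not tested.

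RpL39 (CG3997), a small protein of the large subunit's exit tunnel, was low in the deposited ratios in both orientations. On its probe with 11 values, the log2 ratios in PTZ-ETH heads were -0.86, -0.40, -0.36 and -0.38 for replicates 1 to 4. In PTZ-ETH-NF heads the 3 ratios were -0.55, -0.35 and -0.09, and in PTZ-NF-NF heads the 4 ratios were -0.51, -0.47, -0.19 and -0.37. None of the 11 was above 0. With deposited signs it fell by 0.50 log2 in PTZ-ETH heads (SE 0.10, limma adjusted p = 0.00731), and this call held in all 12 fits that left out 1 array. The fits without a day-10 array gave -0.59 to -0.41 log2, and those without a day-14 array left the value unchanged.

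The other probe of RpL39 had smaller ratios, from -0.43 to 0.10 log2 over 12 arrays, with 4 above 0. With deposited signs it was -0.23 log2 in PTZ-ETH heads, so both probes had the same sign there, and 0.04 in PTZ-NF-NF heads, where the first was -0.39. Turned, the first probe was -0.13 ± 0.12 log2 (SE) at day 10 and far from the threshold (limma adjusted p = 0.81).

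The other large-subunit proteins with values on most arrays had mixed signs. RpL17 had deposited log2 ratios from -0.19 to 0.50, with 10 of 12 above 0. RpL23 ran from -0.61 to 0.79, RpL27 from -0.30 to 0.26, RpL28 from -0.16 to 0.28, and RpL29 from -0.29 to 0.45. The measured probes of RpL32 were -0.17 and -0.28 log2 in PTZ-ETH-NF heads with the swaps turned, and -0.14 and -0.18 in PTZ-NF-NF heads, with none past the threshold. RpL34a was -0.34 ± 0.14 log2 (SE) at day 10 on 3 values (limma adjusted p = 0.56).

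Among the large-subunit genes, RpL24-like, RpL7-like and RpLP0-like are named for ribosomal proteins, but their yeast counterparts are known as assembly factors of the large subunit. RpLP0-like was below 0 in the deposited ratios on all 5 arrays with a value, from -1.02 to -0.08 log2. RpL24-like ran from -0.82 to 0.20 log2, with 4 of 10 above 0, and the 2 probes of RpL7-like from -0.57 to 0.17 log2. Without these 3 genes, the turned median of the ribosomal protein genes at day 10 was -0.08 log2 over 15 genes. RpLP1, the partner of the stalk protein, had 4 values in all and was tested in no group.

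**Figure D2:**
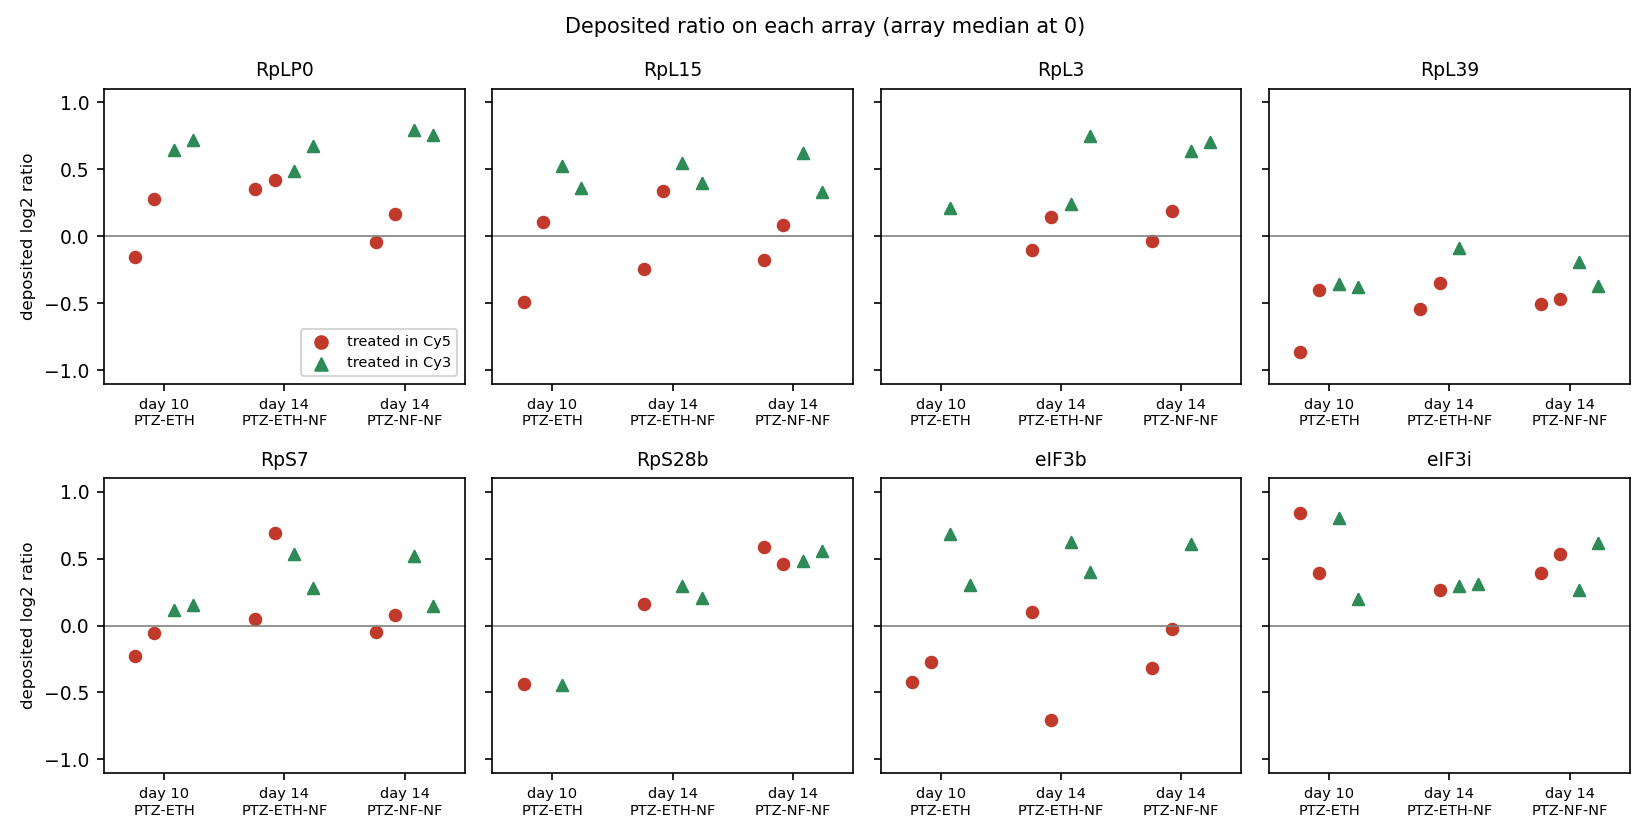
Deposited log2 ratio (array median at 0) on each array for 8 member probes, with circles for treated RNA in Cy5 and triangles for dye swaps, in the order of replicates 1 to 4 within each group. RpLP0, RpL15, RpL3 and eIF3b lie higher on dye swaps, RpL39 lies below 0 on all 11 arrays with a value and eIF3i above 0 on all 11.

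Of the small-subunit proteins, RpS28b (CG2998), a core protein of that subunit, gave the 1 call among members at day 14 with deposited signs and all arrays in the fit. In PTZ-NF-NF heads its deposited log2 ratios were 0.59, 0.46, 0.49 and 0.56 for replicates 1 to 4, all above 0. In PTZ-ETH-NF heads the 3 ratios were 0.16, 0.29 and 0.21, and in PTZ-ETH heads at day 10 the 2 ratios were -0.44 and -0.44. With deposited signs it was 0.52 ± 0.09 log2 higher (SE, limma adjusted p = 0.0439) in PTZ-NF-NF heads than in untreated heads, where 13 of 6386 probes (0.204%) passed. In PTZ-ETH-NF heads 0 of 42 members passed in that reading, where 0.331% of all probes did. Fitted to the PTZ-NF-NF arrays alone, 6 of 48 members passed with deposited signs, where 6.42% of all probes did. The turned value was 0.00 log2, since the swaps had the same sign and about the same size as the other arrays. This call held in the 4 fits that left out a PTZ-ETH array and was lost without any 1 of the 8 day-14 arrays (adjusted p up to 0.44) and with the replicate number as a block. The 2 day-14 groups differed by -0.31 ± 0.14 log2 in RpS28b (PTZ-ETH-NF minus PTZ-NF-NF, deposited signs), which did not pass (limma adjusted p = 0.999).

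RpS7, RpS12 and RpS15Ab had values on all 12 arrays. RpS7 had deposited log2 ratios of -0.23 and -0.05 in PTZ-ETH heads with treated RNA in Cy5 and 0.12 and 0.16 on the dye swaps. In PTZ-ETH-NF heads they were 0.05 and 0.69, and 0.54 and 0.28 on the dye swaps, and in PTZ-NF-NF heads -0.05 and 0.08, and 0.52 and 0.15 on the dye swaps. All 6 dye swaps lay above 0, and the orientations overlapped in PTZ-ETH-NF heads only. With deposited signs RpS7 was 0.39 ± 0.11 log2 (SE) in PTZ-ETH-NF heads and did not pass (limma adjusted p = 0.131).

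RpS12, which in flies is known for its part in cell competition, had 2 probes that did not move together. The probe with 12 values ran from -0.29 to 0.55 log2 in the deposited ratios, with 8 above 0, and was 0.04 log2 at day 10 with the swaps turned. The other probe was 0.33 ± 0.13 log2 (SE) at day 10 (limma adjusted p = 0.52), with deposited ratios of 0.55 and -0.07 with treated RNA in Cy5 and -0.35 and -0.48 on the dye swaps. RpS15Ab, a second copy of the gene for RpS15A, had 2 probes with 12 values each, at 0.00 and 0.29 log2 in PTZ-ETH heads with the swaps turned (adjusted p = 0.56 for the second) and at -0.15 and 0.20 in PTZ-ETH-NF heads. RpS5b, RpS10a and RpS19b, paralog copies of small-subunit proteins, were measured on 10, 4 and 3 arrays. cDNA probes of such close copies may bind transcripts of both, so their values are uncertain as to the copy.

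The probes of 1 gene give a check on the size of these values. Of the members with 2 measured probes, 5 genes had both tested at day 10, and their log2 ratios (swaps turned) differed by 0.16 to 0.30, with a median of 0.29. In PTZ-ETH-NF heads 5 genes had both tested, with differences of 0.07 to 0.35 log2, and in PTZ-NF-NF heads 6 genes, with differences of 0.02 to 0.17. The signs were the same in 2 of 5, 2 of 5 and 5 of 6 genes.

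Among the initiation factors, eIF3b (CG4878), a scaffold subunit of the eIF3 complex that holds the small subunit, had the same turned sign in all 3 groups. Its deposited log2 ratios in PTZ-ETH heads were -0.42 and -0.28 with treated RNA in Cy5 and 0.68 and 0.30 on the dye swaps. In PTZ-ETH-NF heads they were 0.10 and -0.70, and 0.62 and 0.40 on the dye swaps, and in PTZ-NF-NF heads they were -0.31 and -0.02, and 0.61 on the 1 dye swap with a value. Each of the 5 dye swaps lay above 0 and 5 of the 6 other arrays below 0.

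Turned to treated over untreated, eIF3b averaged -0.42 ± 0.18 log2 (SD, n = 4) in PTZ-ETH heads, -0.41 ± 0.36 (SD, n = 4) in PTZ-ETH-NF heads and -0.31 ± 0.29 (SD, n = 3) in PTZ-NF-NF heads. It was the initiation factor with the smallest unadjusted p among those with 4 values at day 10 and in PTZ-ETH-NF heads, and none of the 3 values passed (limma adjusted p = 0.46, 0.998 and 0.73). Fitted to the PTZ-NF-NF arrays alone, with no other group in the spread, the value of -0.39 log2 passed (adjusted p = 0.0474), as did RpLP0 (-0.36, adjusted p = 0.0246) and eIF5B, where 4.31% of all probes did. That eIF3b value rests on only 3 arrays, and its fit includes the dye term, which the mean of -0.31 does not.

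eIF5B, the GTPase that joins the subunits, had deposited log2 ratios of -0.90 and -0.55 in PTZ-NF-NF heads with treated RNA in Cy5 and 0.27 and 0.02 on the dye swaps. Turned, it averaged -0.44 ± 0.38 log2 (SD, n = 4), lower on all 4 arrays, and did not pass (limma adjusted p = 0.54). It passed when fitted to the PTZ-NF-NF arrays alone (adjusted p = 0.0133), with array weights (-0.40 log2, adjusted p = 0.0393) and with arrays scaled to 1 spread (-0.57 log2, adjusted p = 0.0429). At day 10 its 3 deposited ratios were -0.29, 0.12 and -0.20 log2, on both sides of 0.

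The other subunits of eIF3 went several ways. eIF3k was 0.32 ± 0.12 log2 (SE) at day 10 with the swaps turned (limma adjusted p = 0.50), with deposited ratios of 0.52 and 0.31 and, on the dye swaps, -0.22 and -0.24. eIF3l was -0.17 ± 0.12 log2 in PTZ-ETH-NF heads (adjusted p = 0.998), lower on 4 of 4 arrays. eIF3i (CG8882) had deposited ratios above 0 on all 11 arrays with a value, from 0.20 to 0.84 log2. With deposited signs eIF3i was 0.56 ± 0.12 log2 higher (SE) in PTZ-ETH heads than in untreated heads (adjusted p = 0.00893), and its turned value was 0.06. eIF3a and eIF3f1 were below 0 on 10 of 11 arrays each in the deposited ratios, with medians of -0.16 log2 for both.

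The cap-binding isoforms eIF4E3 and eIF4E5 had the smallest p among members for day 14 minus day 10 of the ETH arm, eIF4E3 with the swaps turned and eIF4E5 with deposited signs. eIF4E3, known from the fly testis, had deposited log2 ratios in PTZ-ETH-NF heads at day 14 of -0.28 with treated RNA in Cy5 and 0.50 and 0.27 on the dye swaps. At day 10 its ratios were 0.50 and 0.39, and -0.18 and -0.04 on the dye swaps. Turned, it was -0.29 ± 0.12 log2 (SE) at day 14 and 0.28 ± 0.12 at day 10 of the ETH arm, a difference of -0.57 ± 0.17 log2 (day 14 minus day 10) with the smallest unadjusted p among members in that comparison (limma adjusted p = 0.49). In this comparison 0 of 37 member probes passed, where 0.0449% of 4451 probes did, and 1 member had an unadjusted p under 0.05.

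eIF4E5 had deposited log2 ratios at day 14 of -0.30 and 0.14 with treated RNA in Cy5, and -0.18 and 0.08 on the dye swaps. At day 10 they were 1.00 and 1.05, and 0.88 on the 1 dye swap with a value. All 3 day-10 ratios lay above all 4 day-14 ratios. With deposited signs it was 0.97 ± 0.13 log2 higher (SE) in PTZ-ETH heads at day 10 than in untreated heads (limma adjusted p = 0.00319), and day 14 minus day 10 was -1.03 ± 0.16 log2 (adjusted p = 0.00651), where 9.66% of all probes tested passed. It was the 1 member of 37 that passed this difference. The probe lies in printing block 2, and after the median of its block was subtracted on each array the day-10 value was 0.71 ± 0.11 log2 (adjusted p = 0.0089). With the swaps turned, the day-10 value was 0.28 ± 0.28 log2 (adjusted p = 0.82).

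The remaining comparison set the day-14 arms against each other, and asks whether 3 days of ETH left a difference after 4 days of normal food. With the swaps turned, 0 of 39 member probes differed (0% of 4766 probes passed), and no member had an unadjusted p under 0.05, where 1.64% of all probes did. The ribosomal protein genes had a median difference of 0.04 log2 over 17 genes (PTZ-ETH-NF minus PTZ-NF-NF), from -0.12 to 0.26, against 0.02 over all genes. RpLP0 had the smallest unadjusted p among members (0.26 ± 0.14 log2, SE, limma adjusted p = 1.00). RpS15Ab, on the probe with the larger value, was at 0.28 ± 0.17 log2 and eIF3g1, an RNA-binding subunit of eIF3, at 0.27 ± 0.19. With deposited signs, 0 of 39 passed too, and 2 had an unadjusted p under 0.05, RpL23 (-0.43 ± 0.19 log2) and RpS28b.

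With deposited signs, 11 of 57 member probes passed at day 10, 7 higher and 4 lower in PTZ-ETH heads than in untreated heads, where 30.5% of all 9479 probes did (18.7% higher and 11.8% lower). The share of members, 19.3%, was below that of all probes, and no test of that difference was made. Among the ribosomal proteins 2 of 21 probes passed (RpLP0 higher and RpL39 lower), among the initiation factors 6 of 25 did, among the elongation factors 1 of 4 and among the synthetases 2 of 7. Fitted to the day-10 arrays alone, 6 of 57 passed, where 16.8% of all probes did. Of 40 named values over the 3 groups in this reading, 5 no longer passed and 2 newly passed when only the compared arrays were fitted. Ratios were more spread out at day 10. Their SD over probes lay between 0.46 and 0.58 log2 per array, against 0.27 to 0.39 at day 14. Unless stated, adjusted p-values of single genes at day 10 come from the fit to all 12 arrays, with 1 spread per probe. With the day-10 arrays alone fewer members passed (6 against 11 of 57), so single calls at day 10 depend on which arrays are fitted. Without PTZ-ETH replicate 3, 6 member probes passed. RpLP0 did not pass without PTZ-ETH replicate 2, 3 or 4 (limma adjusted p up to 0.0878), SerRS without replicate 2 or 3 (up to 0.0666) and eIF4H2 without replicate 1, 2 or 3 (up to 0.161, at 0.39 log2 without replicate 3). eEFSec was -0.25 log2 without replicate 1 (adjusted p = 0.143) and did not pass without replicate 2 or 3 either. eIF2Bbeta passed in 4 of the 12 fits that left out 1 array.

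The initiation factors higher in that reading were eIF4E5, eIF3i, eIF6 and eIF4H2. eIF6, which keeps the large subunit from joining too early, had deposited log2 ratios of 0.72, 0.39, 1.19 and 0.46 at day 10 and was above 0 on all 9 arrays with a value. It was 0.69 ± 0.14 log2 higher (SE, limma adjusted p = 0.00926). eIF4H2 was 0.59 ± 0.18 log2 higher (adjusted p = 0.0358), with 1 ratio of 1.31 against 0.24 to 0.54 on the other 3 arrays.

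eIF2D and eIF2Bbeta were the initiation factors lower in that reading. eIF2D, which delivers tRNA to the ribosome outside the usual route, had the lowest ratio of all members among its 4 values: -0.37, -0.86, -1.21 and -2.39 log2 for replicates 1 to 4, with no value at day 14. It fell by 1.21 log2 (SE 0.21, limma adjusted p = 0.00886) with deposited signs and was 0.59 ± 0.21 log2 (adjusted p = 0.52) with the swaps turned. eIF2Bbeta, a subunit of the exchange factor that recharges eIF2, fell by 0.32 log2 (adjusted p = 0.0451) and was below 0 on 11 of 12 arrays over the 3 groups. Its partner eIF2Bdelta was above 0 on 11 of 12 arrays, with 1.02 log2 on 1 day-10 array, and did not pass at day 10 in either reading.

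**Figure D3:**
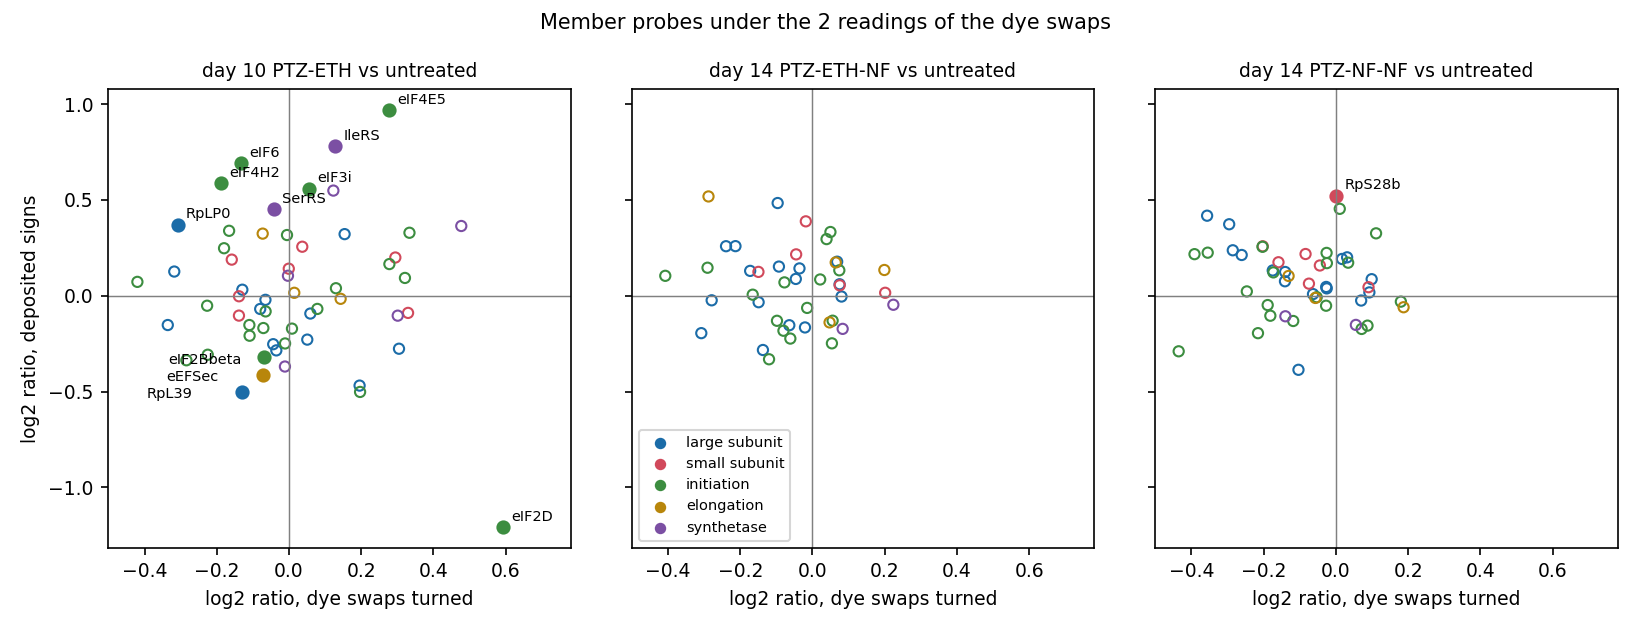
Log2 ratio of each member probe with the dye swaps turned (horizontal axis) and with deposited signs (vertical axis) in the 3 groups, coloured by class; filled points passed at an adjusted p under 0.05 with deposited signs, and none passed with the swaps turned. The filled points are 11 at day 10 and RpS28b in PTZ-NF-NF heads.

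The elongation factors were few. eEF1delta, part of the exchange complex of elongation factor 1, had deposited log2 ratios from -0.40 to 0.15 over 12 arrays, and eEF5 (the fly name of eIF5A), which eases stalled peptide bond formation, from -0.07 to 0.50. Neither passed in any group in either reading. eEFSec, which carries selenocysteine tRNA, fell by 0.41 log2 in PTZ-ETH heads with deposited signs (SE 0.13, limma adjusted p = 0.03), with ratios of -0.72, -0.25, -0.39 and -0.28. Its day 14 minus day 10 difference was 0.55 ± 0.18 log2 (adjusted p = 0.0707). eEF1alpha2, a copy of the main elongation factor with expression known in neurons, was above 0 on all 9 arrays of its better measured probe, from 0.07 to 0.93 log2, and did not pass (0.52 ± 0.13 log2 in PTZ-ETH-NF heads with deposited signs, adjusted p = 0.106).

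Among the synthetases, IleRS and SerRS were higher at day 10 with deposited signs. IleRS had log2 ratios of 0.91, 0.60 and 0.70 on 3 arrays and was 0.78 ± 0.15 log2 higher (SE, limma adjusted p = 0.015). SerRS had ratios of 0.28, 0.55, 0.58 and 0.41 and was 0.45 ± 0.12 log2 higher (adjusted p = 0.0201), and in PTZ-NF-NF heads it was -0.11 ± 0.11 log2 (adjusted p = 0.87). beta-PheRS, the beta chain of the enzyme for phenylalanine, had the largest turned value among them, 0.48 ± 0.15 log2 (SE, adjusted p = 0.47), from deposited ratios of 0.65 and 1.03 with treated RNA in Cy5 and -0.35 and 0.12 on the dye swaps. AlaRS had 2 probes that were 0.00 and 0.30 log2 at day 10 with the swaps turned.

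Several of these day-10 values depended on the printing block, as inferred from the order of the probe IDs. After the median of each printing block was subtracted on each array, 10 of 57 member probes passed with deposited signs, 2 higher and 8 lower, where 16.6% of all probes did (8.18% higher and 8.43% lower). Of the 11 probes that passed before, 4 passed after: eIF4E5 higher, and RpL39 (-0.39 ± 0.09 log2, adjusted p = 0.0201), eIF2D (-0.69 ± 0.17, adjusted p = 0.0408) and eEFSec (-0.60 ± 0.12, adjusted p = 0.012) lower. The 6 that passed only after were eIF4A, higher, and RpS5b, RpL23, eIF3a, eIF3l and the first probe of eIF4G1, lower. RpLP0, eIF3i, eIF6, eIF4H2, IleRS, SerRS and eIF2Bbeta passed only before. RpS28b in PTZ-NF-NF heads was 0.62 ± 0.11 log2 after subtraction (limma adjusted p = 0.0373), where 0.345% of all probes passed. In the difference of day 14 minus day 10, 3 of 37 members passed after subtraction, where 8.22% did.

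**Figure D4:**
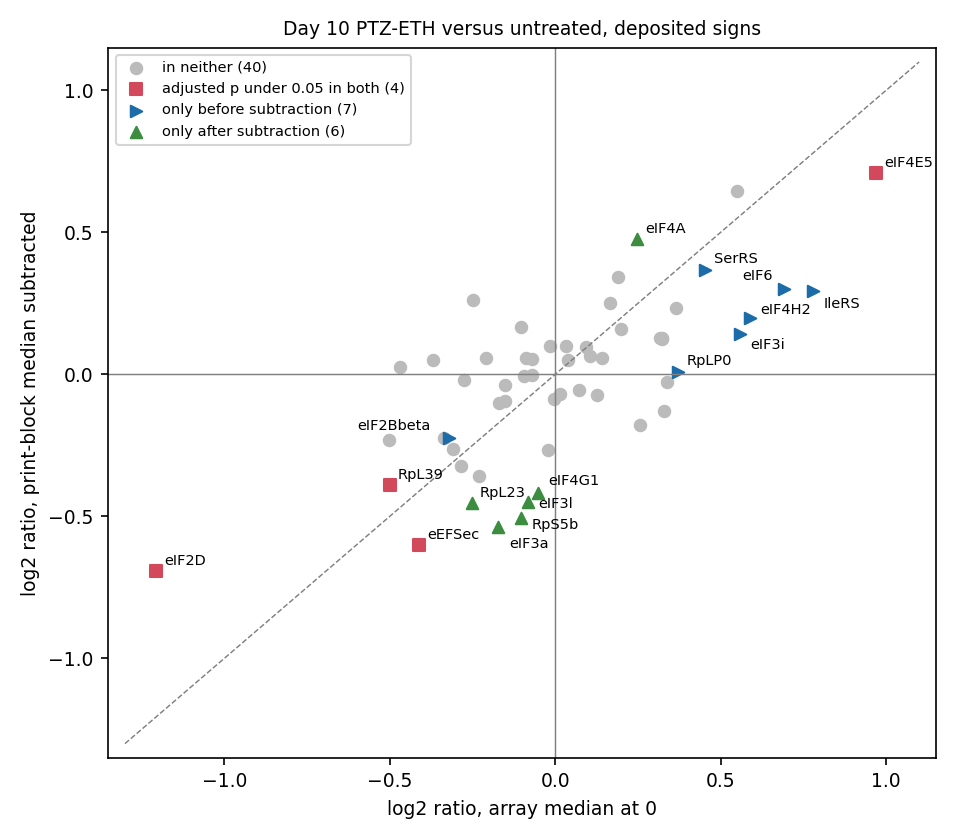
Log2 ratio of each of the 57 member probes tested at day 10 with deposited signs, with the array median at 0 (horizontal axis) and after the printing-block median was subtracted on each array (vertical axis); the dashed line marks equal values. Squares mark the 4 probes that passed an adjusted p of 0.05 in both, blue triangles the 7 that passed only before and green triangles the 6 that passed only after.

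The part of the deposited ratio that both dye orientations share does not depend on the reading: it is the treatment in one and the dyes in the other. Averaged over all 12 arrays, it passed for 6 of the 34 member probes tested, where 11.9% of 4164 probes did. RpLP0 (0.42 ± 0.06 log2, SE), eIF3i (0.45 ± 0.08), eIF2Bdelta (0.28 ± 0.07) and RpL17 (0.23 ± 0.07) were above 0, and RpL39 (-0.40 ± 0.07) and eIF3f1 (-0.23 ± 0.07) below 0, with limma adjusted p from 0.00135 to 0.0453. After block medians were subtracted, RpLP0 (0.31 ± 0.09), eIF3i (0.26 ± 0.07) and RpL39 (-0.32 ± 0.06) passed and so did eIF3a (-0.30 ± 0.08), where 6.32% of all probes did. Whether these shared parts come from the treatment or from the dyes was not tested.

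Other genes of protein synthesis gave no call with the swaps turned. Of 73 listed mitochondrial ribosomal proteins, 36 were tested at day 10, with 16 above 0 and a median of -0.03 log2, 27 in PTZ-ETH-NF heads with a median of 0.04, and 33 in PTZ-NF-NF heads with a median of 0.05. Of 33 ribosome biogenesis genes, 21 were tested at day 10, with 14 above 0 and a median of 0.08 log2. The smallest p in that list was that of Ns1, a nucleolar GTPase (-0.81 ± 0.17 log2 at day 10, limma adjusted p = 0.30), followed by Fib, the rRNA methylase fibrillarin (0.40 ± 0.14, adjusted p = 0.52). Of 24 genes of nutrient and stress control of translation, 7 were tested at day 10 with a median of -0.05 log2, and S6k, the kinase of ribosomal protein S6, was -0.10 ± 0.12 (adjusted p = 0.86). Of the release, recycling and nascent chain factors 8 were tested at day 10, with 5 above 0 and a median of 0.02 log2, and of the signal recognition and translocon genes 14 were, with 8 above 0 and a median of 0.02.

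With deposited signs at day 10, members of most of these lists passed, beside the 30.5% of all probes. Of the 7 tested genes of nutrient and stress control, 0 passed. Of the mitochondrial ribosomal proteins 3 were higher and 4 lower, with mRpL54 at 0.83 ± 0.12 log2 (limma adjusted p = 0.00462) and mRpL45 at -0.50 ± 0.09 (adjusted p = 0.00615). Of the ribosome biogenesis genes 2 were higher and 1 lower, with Ns2 at 0.67 ± 0.11 log2 (adjusted p = 0.0057). Of 9 tested subunits of RNA polymerases I and III, 3 were higher and 1 lower, with Polr1C at 0.82 ± 0.16 log2 (adjusted p = 0.011) and Polr3E at 0.58 ± 0.13 (adjusted p = 0.012). Of 14 tested genes of signal recognition and the translocon, 2 were higher and 2 lower, with Srp72 at 0.57 ± 0.11 log2 (adjusted p = 0.00941) and Sec61beta at -0.41 ± 0.10 (adjusted p = 0.0111). Of the 8 release, recycling and nascent chain factors 2 were higher: betaNACtes6, a testis form of a nascent chain subunit, at 0.55 ± 0.17 log2 (adjusted p = 0.0355), and Nacalpha. Nacalpha, which binds nascent chains at the ribosome, was 0.33 ± 0.11 log2 higher (adjusted p = 0.0435). After printing-block medians were subtracted, fewer genes of most of these lists passed, beside 16.6% of all probes. RNA polymerases I and III then had 0 higher and 1 lower, with Polr1C at 0.40 log2 (limma adjusted p = 0.0527) and Polr3E at 0.38 (adjusted p = 0.0577), and their median was 0.00 log2, against 0.15 before. Signal recognition and the translocon had 0 higher and 1 lower, with Srp72 at 0.11 log2 (adjusted p = 0.45) and Sec61beta at -0.18 (adjusted p = 0.175), and their median was -0.07 log2, against 0.07 before. The release, recycling and nascent chain factors had 0 higher and 1 lower, with betaNACtes6 at 0.35 log2 (adjusted p = 0.114) and Nacalpha at 0.38 (adjusted p = 0.0538). Of the mitochondrial ribosomal proteins 2 were higher and 3 lower: mRpL54 passed (0.44 log2, adjusted p = 0.0338) and mRpL45 did not (-0.27, adjusted p = 0.0892). The ribosome biogenesis genes had 2 higher and 1 lower, and Ns2 passed (0.46 log2, adjusted p = 0.0231). At day 14 no gene of these lists passed in either group, in either reading.

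Markers of head cell types gave values of like size beside these. With deposited signs at day 10, 3 of 8 tested photoreceptor markers were higher, with a median of 0.23 log2, and 2 of 6 glia markers were lower, with a median of -0.21. The 1 neuron marker tested, nSyb, was 0.67 ± 0.12 log2 higher (limma adjusted p = 0.00455). Of the others, 2 of 7 fat body, 1 of 4 muscle, 1 of 2 gut and 0 of 3 antenna markers were higher. Of all probes tested, 18.7% were higher and 11.8% lower in that reading. Whether the share of a cell type shifted was not tested. After printing-block medians were subtracted, nSyb was 0.21 ± 0.10 log2 and did not pass (limma adjusted p = 0.15), 2 of 8 photoreceptor markers were higher and 1 of 6 glia markers was lower. Of the fat body and the gut markers 1 each was then higher and 1 each lower, and 1 muscle and 0 antenna markers were higher. Of all probes, 8.18% were then higher and 8.43% lower. With the swaps turned, none passed, and the medians were -0.09 log2 for the photoreceptor and -0.37 for the glia markers, where 0 of 6 lay above 0. Their part in the values of the translation genes was not tested.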

How the data were processed

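The authors deposited 1 log2 ratio of the channels per spot, which they quantified in GenePix and normalized in Acuity, per the series' design text; spots of low intensity were ignored in that normalization and spots were filtered on saturation, quality marks and uniformity. The log2 scale was deduced from the values, and the numerator on the dye swaps is unknown. Each of 13824 probes was the mean of 2 adjacent spots; 5 spot values at the software ceiling of 16.61 were set to missing, and each array was centred on its median. Deposited medians ranged from -0.62 to 0.03 log2. Genes came from GEO's platform annotation: 7558 probes had 1 gene, 51 several and 6215 none listed, and gene IDs gave 7447 of them a current symbol. At most 0.289% of spot values were identical between any of the 66 pairs of arrays.

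Group means and 1 dye term were fitted across all probes tested in a comparison with limma 3.58.1 in R 4.3.3 (lmFit and eBayes, 2-sided, Benjamini-Hochberg, threshold 0.05); a probe was tested with at least 3 values in a group. Reported errors are the model's SE or the SD over arrays, as stated. The script was tested on simulated data. The number of arrays limits the precision. The replicates are pools of flies, and p-values rest on the spread between arrays of all 3 groups.

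The members and the gene lists were chosen with earlier results of these data known. Named were all member probes past the threshold, the 2 with 4 values and the smallest p per class and group, up to 8 in each direction past the threshold with deposited signs, members with several probes, and 2 genes per other list by smallest p; further members are given by their range and were named after their values were seen. Alternatives tried were the deposited signs, print-block medians subtracted (with and without turning), no centring, arrays scaled to 1 spread, array weights, dye terms left out or per group, other minimums of values, probes averaged per gene, arrays of the compared groups alone, the replicate number as a block, and each array left out. No sequence is shown, since none was used.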

Additional observations from a re-analysis of the deposited data

Results flagged for a closer look

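Of 41 sets of 4 ratios (1 named probe in 1 group each), 2 held a ratio far from the other 3 by Dixon's criterion, about as many as the 1 in 20 that chance gives. Both were of AlaRS, on its probe with 12 values. In PTZ-ETH heads at day 10 its turned ratio was -0.0995 log2 on replicate 2, against 0.39 to 0.49 on the other 3 arrays. In PTZ-ETH-NF heads at day 14 its turned ratio was -0.5435 log2 on replicate 2, against 0.23 to 0.37 on the other 3.

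The ETH arm differed between days in eIF4E5 with deposited signs: day 14 minus day 10 was -1.03 log2 in limma's contrast of the groups (adjusted p = 0.00651), with 4 values at day 14 and 3 at day 10. Its deposited ratios lay between -0.30 and 0.14 log2 at day 14, and between 0.88 and 1.05 at day 10.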

How the results depend on the processing

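The reading of the dye swaps moved the results most often among the alternatives run. With deposited signs in place of turned swaps, the counts of member probes past the threshold were 11 at day 10, 1 in PTZ-NF-NF heads and 1 for day 14 minus day 10, against 0 in each with the swaps turned, and the median of the ribosomal protein genes in PTZ-NF-NF heads was 0.18 log2. With block medians subtracted as well, the counts were 10, 1 and 3 and that median was 0.14. At day 10, RpLP0 (0.37 log2), eIF6 (0.69), SerRS (0.45), eIF4H2 (0.59) and eIF2D (-1.21, and -0.69 with block medians subtracted) had the opposite sign and passed. With the swaps turned, the count in PTZ-NF-NF heads was 3 on its own arrays, 2 with array weights and 1 with scaled arrays. Within the deposited signs, fits to the compared arrays alone gave 6 calls at day 10 and 6 in PTZ-NF-NF heads. The causes were not tested.

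Leaving out 1 array gave 0 calls in all 5 comparisons with the swaps turned, and medians of the ribosomal protein genes from -0.08 to 0.03 log2 at day 10, -0.13 to -0.05 in PTZ-ETH-NF heads and -0.13 to -0.03 in PTZ-NF-NF heads. With deposited signs the counts ran from 6 to 11 at day 10, 0 to 1 in PTZ-ETH-NF heads (1 without PTZ-ETH replicate 1), 0 to 1 in PTZ-NF-NF heads, 0 to 0 between the day-14 groups and 1 to 2 between the days (2 without PTZ-ETH replicate 2 or 4 or PTZ-ETH-NF replicate 2), with medians from -0.11 to -0.01, 0.10 to 0.19 and 0.14 to 0.20 log2. Of the day-10 calls with deposited signs, RpL39, eIF2D, eIF3i, eIF4E5 and eIF6 held in 12 of 12 such fits, and 5 others in 4 to 10 of 12. IleRS held in 9 of 9, but none of these left out an array with a day-10 value of IleRS, so they do not check its call. Only the fits without a day-10 array removed day-10 values, and those without a day-14 array left most day-10 values unchanged. With the replicate number as a block, 0 members passed in each comparison with the swaps turned; with deposited signs 10 passed at day 10, 0 in PTZ-NF-NF heads and 1 between the days. The labels pair no samples across groups other than by replicate number. Differences between replicates 1 and 2 correlated at 0.25 between the day-14 groups, and those between 3 and 4 at -0.02. Between day 10 and the day-14 groups the correlations ran from -0.08 to 0.05. What the day-14 replicates 1 and 2 share was not tested.

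Of 40 values of named probes, the sign differed with deposited signs in 24, without centring in 11, with block medians subtracted in 4, in 21 with block medians subtracted and deposited signs, and in 0 to 4 when 1 array was left out. Missing values limit the comparisons: 42 of 75 member probes were tested in PTZ-ETH-NF heads.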
